A study of Mus musculus with 10 samples.

Results

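S100a8, S100a9, Csf3r, Camp, Ngp, Lcn2, Il1b, Mmp8, Mpo and Ltf are 10 genes that neutrophils use, and each was measured in 10 mouse tumors. They were looked up by gene name among the non-control probes of the array, and the set was chosen with earlier results of these data known. All 10 were found, on 11 of the 40196 probes of the deposited table, since Ltf had 2 probes. None of them passed the test in any comparison between tumor groups, while single tumors differed widely in that table for Lcn2, Mmp8, Il1b and Camp. For Camp the signal of the reference RNA was not well above background on any array. In ratios computed from the scanner signals, the SD over the tumors was 0.690 for Camp and 1.48 for Ltf.

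The tumors were 5 sarcomatoid carcinomas, in which carcinoma cells are spindle shaped, and 5 adenocarcinomas, which keep a glandular form. The groups were the adenocarcinomas of the mammary gland (tumors 105, 131, 470, 17 and 85), the sarcomatoid carcinomas of the mammary gland (tumors 323, 307 and 594) and the transplanted sarcomatoid carcinomas of the lung (lung tumors 323 and 307). The labels call tumor 594 a sarcomatoid carcinoma, and tumors 323 and 307 of both sites sarcomatoid adenocarcinomas. Per the study's methods the lung tumors grew from cell lines of the mammary tumors after injection into the tail vein, so the sarcomatoid group holds 3 tumor numbers in 5 samples and p-values over the 5 are not from 5 separate origins. The adenocarcinomas carried Pik3ca H1047R and Trp53 R270H with MMTV-Cre. Of the sarcomatoid tumors with a lung derivative, one had the same 3 alleles and the other had Pik3ca H1047R and MMTV-Cre with a spontaneous Trp53 R245H, and the labels do not say which is tumor 323. The sarcomatoid tumor without a lung derivative (594) had Trp53 R270H and MMTV-Cre. Every mammary tumor thus shared the Cre transgene, whose promoter is active in mammary epithelium, and ages are not given in the sources used here.

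Neutrophils are short-lived white blood cells that mature in bone marrow in an ordered way. Precursors first make the enzymes of the azurophil granules such as myeloperoxidase (Mpo), later stages make the secondary granule proteins such as lactoferrin (Ltf), cathelicidin (Camp), Ngp and lipocalin 2 (Lcn2), and mature cells hold much S100a8 and S100a9. S100a8 and S100a9 join as calprotectin, which binds calcium and zinc and can signal through the receptor Tlr4. In the mammary gland lactoferrin and lipocalin 2 are made by epithelial cells too, lactoferrin being a milk protein, and interleukin 1 beta (Il1b) is also a product of macrophages.

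S100a8 and S100a9 are neighbors, and some other members share a chromosome. By the probe positions in the files (build mm7), S100a8 (chr3:90800058-90800117) and S100a9 (chr3:90822865-90822924) lay 22.7 kb apart on opposite strands. Camp (chr9:109544107-109544166) and Ngp (chr9:110119702-110120250) lay 0.576 Mb apart, and Ltf (chr9:110738071-110738130) lay 0.618 Mb beyond Ngp. The others were Mmp8 (chr9:7566361-7566420), Lcn2 (chr2:32392828-32393072), Il1b (chr2:129105464-129105523), Csf3r (chr4:125488697-125488756) and Mpo (chr11:87873508-87874283).

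The 250 bases before the RefSeq start of 6 of these genes (GRCm38.p6, read in the direction of the gene) are shown because the members of each pair are either neighbors or had their high values in the same tumors. Capitals mark TTGCNNAA on either strand, a form of the site of the C/EBP factors that drive granule genes in myeloid cells. The windows are chr3:90668821-90669070 (plus strand), chr3:90695722-90695971 (minus strand), chr9:109849457-109849706 (minus strand), chr9:110419558-110419807 (plus strand), chr2:32387740-32387989 (minus strand) and chr9:111019042-111019291 (plus strand).
S100a8: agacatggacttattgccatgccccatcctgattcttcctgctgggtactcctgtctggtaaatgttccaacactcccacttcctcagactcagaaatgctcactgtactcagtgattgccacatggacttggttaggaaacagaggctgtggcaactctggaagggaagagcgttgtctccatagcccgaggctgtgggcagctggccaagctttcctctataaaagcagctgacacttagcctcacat
S100a9: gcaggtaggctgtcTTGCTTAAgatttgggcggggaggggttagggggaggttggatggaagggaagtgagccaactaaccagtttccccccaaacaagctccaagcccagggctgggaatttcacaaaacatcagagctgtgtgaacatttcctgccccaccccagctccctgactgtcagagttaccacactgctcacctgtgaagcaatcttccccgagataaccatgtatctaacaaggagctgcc
Camp: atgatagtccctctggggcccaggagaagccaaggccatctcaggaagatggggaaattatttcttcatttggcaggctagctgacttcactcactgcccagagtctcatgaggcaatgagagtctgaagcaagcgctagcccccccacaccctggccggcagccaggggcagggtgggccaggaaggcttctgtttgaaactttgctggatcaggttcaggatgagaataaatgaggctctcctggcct
Ngp: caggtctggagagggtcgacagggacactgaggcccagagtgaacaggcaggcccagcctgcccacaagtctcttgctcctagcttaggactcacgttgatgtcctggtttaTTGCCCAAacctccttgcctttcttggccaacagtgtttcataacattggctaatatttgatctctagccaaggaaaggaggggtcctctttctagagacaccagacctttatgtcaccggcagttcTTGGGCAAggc
Lcn2: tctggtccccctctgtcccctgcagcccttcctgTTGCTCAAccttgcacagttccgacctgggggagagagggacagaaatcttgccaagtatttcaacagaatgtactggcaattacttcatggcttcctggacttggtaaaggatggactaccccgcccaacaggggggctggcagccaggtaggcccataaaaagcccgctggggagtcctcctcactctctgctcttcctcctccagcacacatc
Ltf: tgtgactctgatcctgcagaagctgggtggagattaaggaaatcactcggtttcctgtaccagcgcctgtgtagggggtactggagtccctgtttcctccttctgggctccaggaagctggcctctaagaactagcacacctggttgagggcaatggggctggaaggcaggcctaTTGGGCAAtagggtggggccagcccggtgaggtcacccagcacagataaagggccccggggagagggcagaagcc
TTGCNNAA was found in 5 of the 10 members' windows (S100a9, Ngp, Lcn2, Mmp8 and Ltf) and in 9.56% of 32851 RefSeq windows of the same length. Lcn2 held it 216 bases before the start and Ltf 75, and Ngp held it at 138 and 11. GAGGAAGT on either strand, a form of the PU.1 site, was in 3 members (S100a8, Mmp8 and Mpo) against 2.44% of windows. TATAAA on the gene strand was in 2 (S100a8 and Il1b) against 7.59%. These 3 motifs were chosen after other forms had been searched in the same windows, so the shares are a description, and no match says only that the letters are not in the window.

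Values are log2 ratios of a tumor over a common reference RNA from the authors' table, and each group difference is a log2 difference of those ratios. The direction is a reading of the files and goes against the labels, which name Cy3 (green) as the dye of the tumor RNA. Green varied less between arrays than red (mean SD over arrays 0.604 against 0.906 on the log2 scale), and each column of the table correlated with the red over green ratio of its own array at 0.868 to 0.926 across probes. If the dye label were right, the sign of every value here would turn. No pair of table columns ran in opposite directions (r across probes from 0.414 to 0.772). Each column was centered near 0, with medians from -0.05 to 0.07, and the steps behind the table are not given in the sources used here. In red, 52.2% (tumor 85) to 83.0% (tumor 105) of probes were well above background.

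The file headers name 3 extraction protocol versions, which are called scan batches here. Tumor 323 was alone in scan batch 1, tumors 307, 594, 105 and 470 were in scan batch 2, and both lung tumors were in scan batch 3 with tumors 131, 17 and 85. No batch held both a lung and a mammary sarcomatoid tumor. Elane, an azurophil granule gene, was not well above background on any array. Of 5 lung epithelial genes, 2 were well above background in lung tumor 323 and 3 in lung tumor 307, beside 0 to 4 in the mammary gland tumors. In whole tumor RNA, fewer neutrophils and less RNA per neutrophil cannot be told apart.

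**Figure D1:**
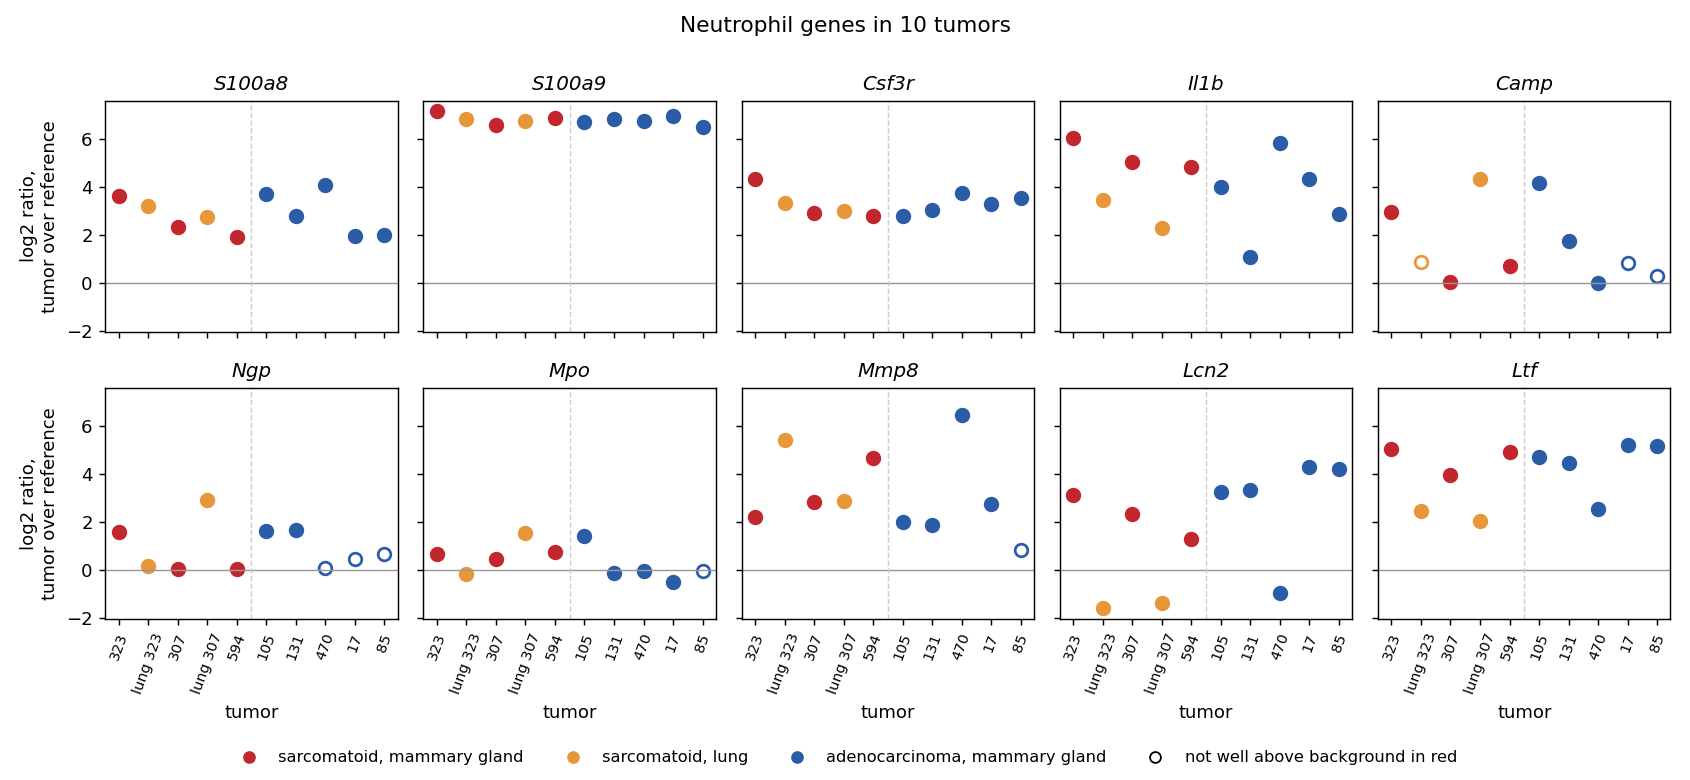
Log2 ratio of tumor over reference (y axis) for each of the 10 neutrophil genes in each tumor (x axis), 1 point per array, with the 5 sarcomatoid tumors left of the dashed line and the 5 adenocarcinomas right of it. Open points were not well above background in red. S100a9 lay between 6.52 and 7.17 in all tumors, whereas Lcn2 ran from -1.60 to 4.32.

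S100a9 stood out for how little its ratio varied. Its log2 ratio was 7.17 in tumor 323, 6.83 in lung tumor 323, 6.58 in tumor 307, 6.74 in lung tumor 307 and 6.87 in tumor 594, and it was 6.71, 6.85, 6.76, 6.98 and 6.52 in adenocarcinomas 105, 131, 470, 17 and 85. The groups overlapped and the whole range was 0.65. The SD over the 10 tumors was 0.189, and 99.1% of probes had a larger one. The probe was well above background in both channels on all 10 arrays and saturated on none.

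The narrow range of S100a9 belonged to the ratios of the deposited table. In ratios computed from the scanner signals, with limma's background correction and loess normalization, the SD was 0.246 and 56.4% of probes had a larger one. In the red channel alone, as the log2 signal minus the 75th percentile of the array, S100a9 ran from 3.46 in tumor 131 to 5.85 in tumor 470, with an SD of 0.671, and 62.8% of probes had a larger one. The cause of this difference between scales was not tested. Sarcomatoid minus adenocarcinoma, S100a9 differed by 0.07 (SE 0.22, limma adjusted p = 0.946).

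S100a8, the partner of S100a9 in calprotectin, varied more in the same tumors as a log2 ratio. Its log2 ratio was 3.63 in tumor 323, 3.19 in lung tumor 323, 2.35 in tumor 307, 2.76 in lung tumor 307 and 1.92 in tumor 594. The adenocarcinomas were at 3.69 (105), 2.79 (131), 4.07 (470), 1.94 (17) and 2.0 (85). The highest and the next highest value were both in adenocarcinomas, and the groups overlapped along nearly their whole range. The difference was -0.13 (SE 0.47, limma adjusted p = 0.960). In the red channel alone, tumor 470 was highest for both partners, with 2.99 for S100a8 and 5.85 for S100a9. The SDs were close there, 0.706 for S100a8 and 0.671 for S100a9. In ratios from the scanner signals they were 0.774 and 0.246.

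Csf3r encodes the receptor for granulocyte colony-stimulating factor, the main growth factor of the lineage. The ratio on the log2 scale was 4.33 in tumor 323, 3.34 in lung tumor 323, 2.92 in tumor 307, 3.02 in lung tumor 307, 2.79 in tumor 594, and 2.79, 3.03, 3.75, 3.30 and 3.54 in adenocarcinomas 105, 131, 470, 17 and 85. Tumor 323 was the highest, and the other 9 values lay within 2.79 to 3.75. The group means were 3.28 ± 0.62 (SD, n = 5) in sarcomatoid tumors and 3.28 ± 0.39 (SD, n = 5) in adenocarcinomas, and the limma adjusted p of their difference was 0.999. Green was well above background for Csf3r on 3 arrays, and tumor 323 was not among them. In red alone tumor 470 was highest (-0.59) and tumor 323 was at -1.56. From the scanner signals tumor 470 was again highest, at 2.36, with tumor 323 at 1.91.

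Camp and Ngp, 2 secondary granule genes of the same stretch of chromosome 9, had their high values in the same tumors. The Camp log2 ratio was 2.97 in tumor 323, 0.86 in lung tumor 323, 0.04 in tumor 307, 4.32 in lung tumor 307, 0.69 in tumor 594, and 4.16, 1.77, 0.01, 0.83 and 0.30 in adenocarcinomas 105, 131, 470, 17 and 85. The Ngp log2 ratio was 1.58, 0.15, 0.04, 2.94 and 0.04 in the sarcomatoid tumors in the same order, and 1.61, 1.66, 0.09, 0.47 and 0.65 in the adenocarcinomas. Lung tumor 307, adenocarcinomas 105 and 131 and mammary tumor 323 held the 4 highest values of both genes, so each group had high and low tumors.

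Neither gene passed the test between groups. Camp differed by 0.36 (SE 0.92, limma adjusted p = 0.938) and Ngp by 0.06 (SE 0.57, limma adjusted p = 0.986) between sarcomatoid tumors and adenocarcinomas. Camp was well above background in red on 7 arrays (not in lung tumor 323, 17 or 85), Ngp on 7 (not in 470, 17 or 85), and neither gene in green on any array, so the reference side of both ratios was near background. From the scanner signals the Camp ratio was 0.91 in lung tumor 307, 2.22 in tumor 105 and 1.16 in tumor 323, and the 10 values ran from 0.05 to 2.22. Without green, the red signal of both genes was highest in lung tumor 307, tumor 105 and tumor 323.

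Mpo, the azurophil granule peroxidase, was at 0.65 in tumor 323, -0.17 in lung tumor 323, 0.47 in tumor 307, 1.54 in lung tumor 307 and 0.74 in tumor 594. The adenocarcinomas were at 1.42 (105), -0.11 (131), -0.04 (470), -0.50 (17) and -0.06 (85). Lung tumor 307 and tumor 105 had the highest ratios on this probe, as they had for Camp, and the groups overlapped. In red alone tumors 323 and 594 were highest for Mpo (-1.55 and -1.54), above lung tumor 307 (-2.02). The difference was 0.50 (SE 0.40, limma adjusted p = 0.749). Another probe, which the files name only by an Mpo accession, ran from -0.35 in lung tumor 307 to 0.57 in tumor 307 and differed by -0.04. The 2 probes thus placed lung tumor 307 at opposite ends, and the Mpo pattern rests on the named probe.

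**Figure D2:**
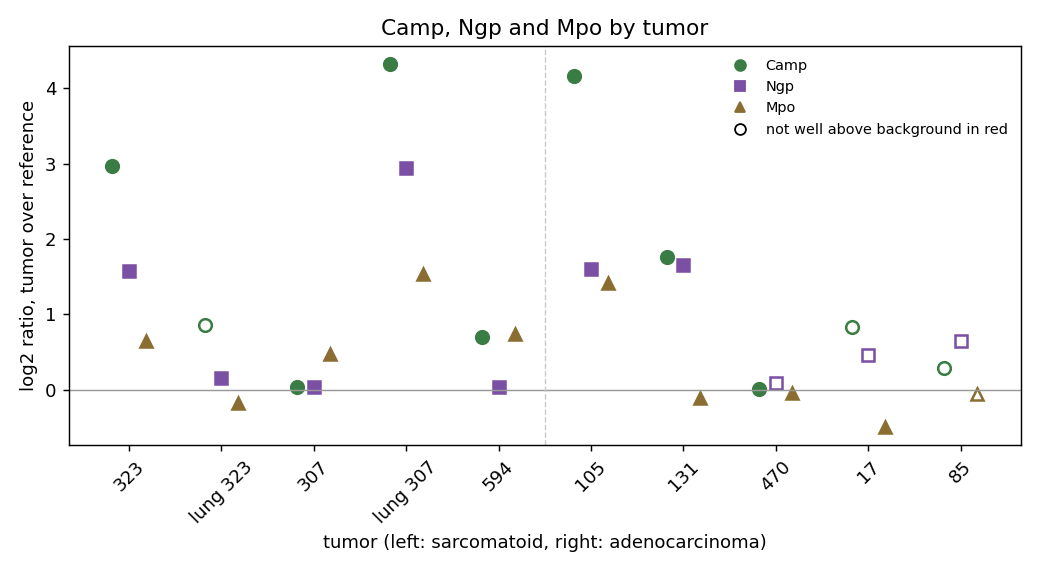
Log2 ratio of tumor over reference (y axis) of Camp (circles), Ngp (squares) and Mpo (triangles) in each tumor (x axis), with open symbols where red was not well above background. Lung tumor 307 had the highest value of all 3 genes, at 4.32, 2.94 and 1.54.

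Mmp8, the neutrophil collagenase, had the widest range of the members apart from Lcn2 in the deposited table. The Mmp8 log2 ratio was 2.23 in tumor 323, 5.44 in lung tumor 323, 2.83 in tumor 307, 2.86 in lung tumor 307, 4.68 in tumor 594, and 2.01, 1.87, 6.49, 2.75 and 0.85 in adenocarcinomas 105, 131, 470, 17 and 85. Tumors 470, lung 323 and 594 stood above the rest, so the groups overlapped, and the difference was 0.82 (SE 0.97, limma adjusted p = 0.848). The same 3 tumors had the highest mean log2 ratio of 25 other neutrophil genes, at 2.12, 1.65 and 1.46, while tumors 131 and 85 were lowest for both. Mmp8 was well above background in red on 9 arrays and in green on 2 (tumors 594 and 470). In red alone tumors 470 (0.35) and 594 (0.04) were highest, but lung tumor 323 (-1.74) was below lung tumor 307 (-1.64). From the scanner signals the highest ratios were those of tumors 470 (3.39), 594 (2.92) and lung 323 (2.08). In those ratios Il1b (0.86 to 5.26) and Ltf (0.72 to 4.74) had a wider range than Mmp8 (0.23 to 3.39).

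Il1b encodes interleukin 1 beta, an inflammatory cytokine, and was measured by 10 spots of 1 probe per array. The Il1b log2 ratio was 6.05 in tumor 323, 3.48 in lung tumor 323, 5.07 in tumor 307, 2.28 in lung tumor 307, 4.82 in tumor 594, and 4.02, 1.09, 5.86, 4.35 and 2.89 in adenocarcinomas 105, 131, 470, 17 and 85. All 3 mammary sarcomatoid tumors were above both lung tumors, and the adenocarcinomas spanned nearly the whole range. Sarcomatoid minus adenocarcinoma the difference was 0.70 (SE 0.87, limma adjusted p = 0.858). Tumors 323 and 470 were highest and tumor 131 was lowest both for Il1b and for the mean of 10 neutrophil growth factors and chemoattractants, which ran from -1.41 in tumor 131 to 1.73 in tumor 470.

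Lcn2, lipocalin 2, binds the siderophores with which bacteria take up iron. Its log2 ratio was 3.14 in tumor 323, -1.60 in lung tumor 323, 2.34 in tumor 307, -1.40 in lung tumor 307 and 1.30 in tumor 594. It was 3.26, 3.34, -0.97, 4.32 and 4.23 in adenocarcinomas 105, 131, 470, 17 and 85. Both lung tumors and adenocarcinoma 470 were below 0 and the other 7 tumors were at 1.30 or above, so the groups overlapped through tumor 470. The means were 0.76 ± 2.16 (SD, n = 5) in sarcomatoid tumors and 2.84 ± 2.18 (SD, n = 5) in adenocarcinomas, a difference of -2.08 (SE 1.15, limma adjusted p = 0.611), or 0.237-fold.

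Ltf, lactoferrin, is an iron-binding protein of secondary granules and of milk. Its log2 ratio was 5.06 in tumor 323, 2.46 in lung tumor 323, 3.97 in tumor 307, 2.05 in lung tumor 307, 4.92 in tumor 594, and 4.73, 4.47, 2.53, 5.23 and 5.18 in adenocarcinomas 105, 131, 470, 17 and 85. The same 3 tumors were lowest as for Lcn2, and the groups overlapped. The difference was -0.74 (SE 0.68, limma adjusted p = 0.789). The other Ltf probe ran from 1.10 to 5.49 with the same 3 tumors lowest, and differed by -0.89 (SE 0.82, limma adjusted p = 0.789).

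The tumors low for Lcn2 and Ltf were also those low for epithelial genes. The mean log2 ratio of 9 epithelial genes was -1.71 in lung tumor 323, -2.55 in lung tumor 307 and -1.46 in adenocarcinoma 470. It was 1.86 in tumor 323, 1.49 in tumor 307 and 0.92 in tumor 594, and 3.29, 3.14, 3.43 and 3.26 in adenocarcinomas 105, 131, 17 and 85. The 4 tumors highest for the epithelial genes were also the 4 highest for Lcn2. For the neutrophil markers, of which 9 had a probe and 6 are also members, the mean in these 3 tumors was 2.20, 3.03 and 2.45, within the range of the other 7 tumors (1.59 to 2.86) except in lung tumor 307. The part of epithelial cells in the Lcn2 and Ltf values was not tested.

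**Figure D3:**
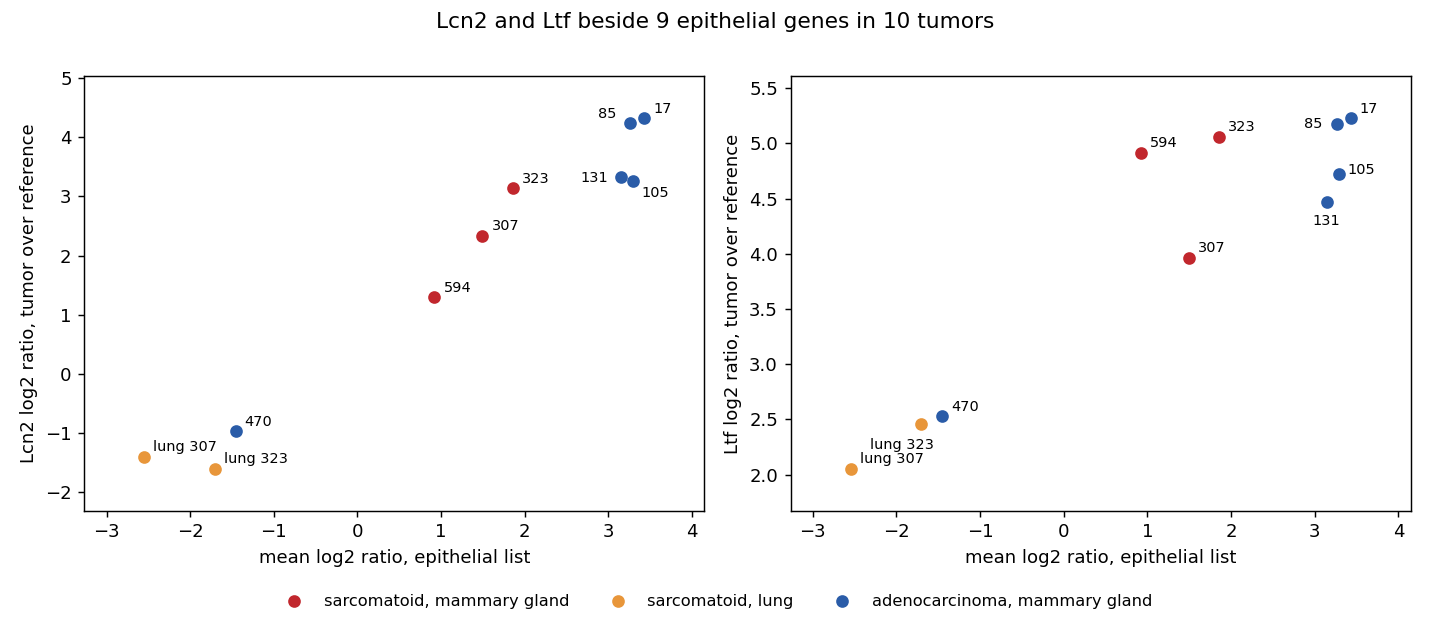
Log2 ratio of tumor over reference of Lcn2 (left, y axis) and Ltf (right, y axis) against the mean log2 ratio of 9 epithelial genes (x axis), 1 labelled point per tumor. Lung tumors 323 and 307 and adenocarcinoma 470 lie at the lower left of both panels, with Lcn2 at -1.60, -1.40 and -0.97.

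Over all 10 tumors, the question was whether these genes differ with tumor histology, sarcomatoid against adenocarcinoma. The sarcomatoid tumors did not all carry the alleles of the adenocarcinomas, so histology was not tested apart from genotype. Of the 10 members 0 passed at a limma adjusted p below 0.05, where 0.00% of all probes passed, and 0 passed at an unadjusted p below 0.05, where 9.23% did. For 0 members were the groups without overlap, against 1.33% of all probes. The median difference of the members was 0.07, with 6 higher and 4 lower, beside -0.00 over all 40196 probes. The smallest limma adjusted p among the members was 0.611, of Lcn2. Within scan batch 2 (2 tumors of each kind) Lcn2 differed by 0.67 and Ltf by 0.81, and within scan batch 3 (2 lung tumors and 3 adenocarcinomas) by -5.46 and -2.70. S100a8 (-1.74 and 0.73), Camp (-1.72 and 1.63), Ngp (-0.81 and 0.62), Mmp8 (-0.49 and 2.33) and Mpo (-0.08 and 0.91) also had opposite signs in the 2 batches. Csf3r was at -0.41 and -0.11, Il1b at 0.0048 and 0.10, and S100a9 at -0.0066 and 0.00056.

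Without the lung tumors, the mammary sarcomatoid tumors were set against the adenocarcinomas, where histology was likewise not tested apart from genotype. Again 0 of 10 members passed at an adjusted p below 0.05 (0.00% of all probes) and 0 at an unadjusted one (8.60%). Il1b had the largest difference, 1.67 (SE 0.87, limma adjusted p = 0.597), while that of Lcn2 was -0.58 (SE 1.04, limma adjusted p = 0.870) and that of Ltf 0.22 (SE 0.57, limma adjusted p = 0.911). The median over the members was 0.09.

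The lung tumors were then compared with the mammary sarcomatoid tumors. These differ in the site of growth, but the lung tumors also came from cultured cell lines injected into the tail vein. Site was therefore not tested apart from culture and transplantation. Lcn2 was at -1.50 ± 0.14 (SD, n = 2) in lung and 2.26 ± 0.92 (SD, n = 3) in mammary tumors, a difference of -3.76 (SE 1.30, limma adjusted p = 0.367). For Ltf it was -2.39 (SE 0.72, limma adjusted p = 0.317) and for Il1b -2.43 (SE 1.08, limma adjusted p = 0.462). On that Ltf probe green was well above background in mammary tumors 323, 307 and 594 but in neither lung tumor. In red alone Ltf was at -1.85 and -1.79 in lung tumors 323 and 307. It was at 1.44, 0.01 and 4.16 in mammary tumors 323, 307 and 594. The second Ltf probe differed by -3.38 (SE 0.70, limma adjusted p = 0.190). No member passed at an adjusted p below 0.05, where 0.0249% of probes did.

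Of the 10 members, 3 (Lcn2, Ltf and Il1b) had an unadjusted p below 0.05, beside 10.7% of all probes. The same 3 had groups without overlap, beside 34.3% of all probes, so groups this small often do not overlap. With 470 left out, an adenocarcinoma that enters this fit only through the estimate of the spread, Lcn2 passed with the same difference (limma adjusted p = 0.0362). Along with Lcn2 and Ltf, 9 of 9 epithelial genes had lower means in the lung tumors (median difference -3.76), with 6 at an unadjusted p below 0.05 and 0 past the adjusted one. The epithelial mean ran from -2.55 to -1.71 in the lung and from 0.92 to 1.86 in the mammary tumors. Of these 9 genes, 7 were well above background in each lung tumor and 9 in each mammary sarcomatoid tumor. Other lists were lower in the lung tumors too. Of the T cell genes 5 were lower and 1 higher (median -1.98), with 4 at an unadjusted p below 0.05. Of the genes of secretory epithelium and milk 7 were lower and 2 higher (median -1.09), with 2 at an unadjusted p below 0.05. Scan batch and site cannot be told apart without the adenocarcinomas, and with scan batch as a term the difference was -6.14 for Lcn2 (limma adjusted p = 0.526), -3.52 for Ltf (limma adjusted p = 0.545) and 0.10 for Il1b (limma adjusted p = 0.998).

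**Figure D4:**
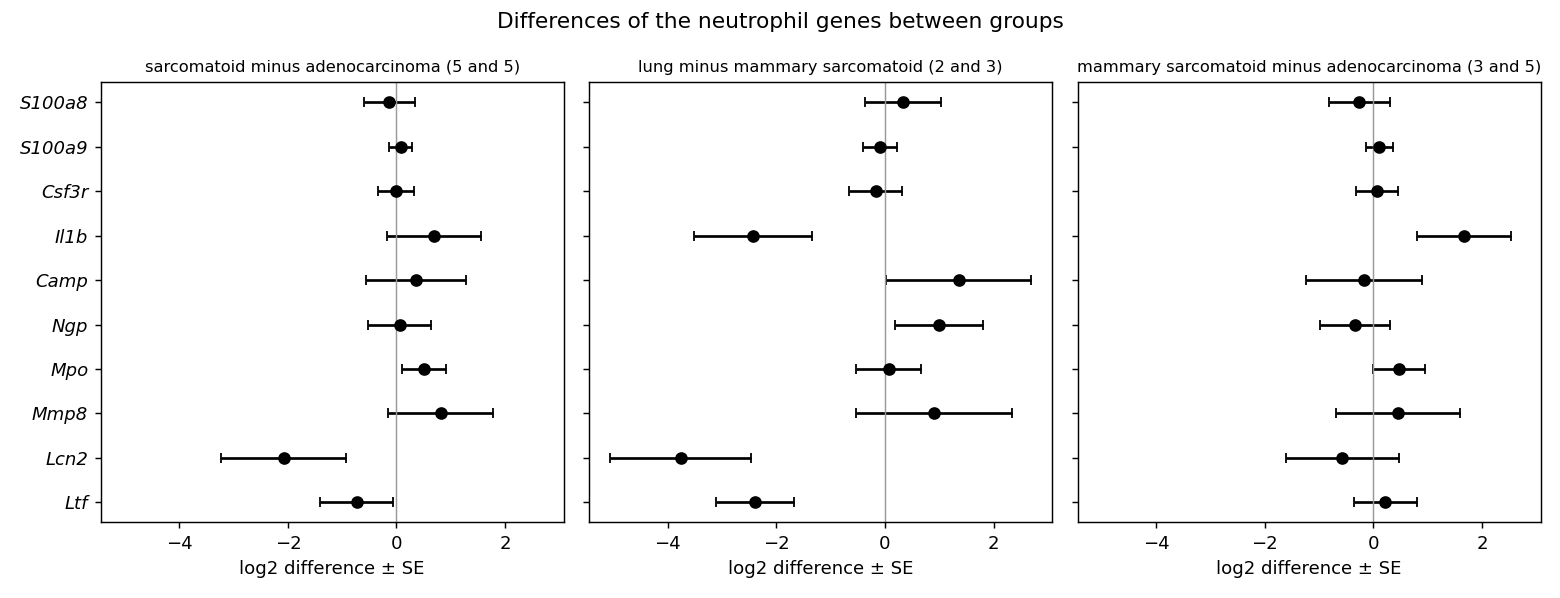
Log2 difference with its standard error (x axis) for each neutrophil gene (y axis) in the 3 comparisons, with the number of tumors on each side in the panel titles. Most points lie within about 1 SE of 0, and Lcn2 (-3.76), Il1b (-2.43) and Ltf (-2.39) lie farthest below 0 between lung and mammary sarcomatoid tumors.

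The 2 tumor numbers that gave both a mammary and a lung tumor allow a comparison within each number. Lung minus mammary, Lcn2 differed by -4.74 for tumor 323 and -3.74 for tumor 307, Il1b by -2.57 and -2.79, and Ltf by -2.60 and -1.91. These 3 genes were lower in the lung tumor of both pairs. Camp differed by -2.11 for tumor 323 and by 4.29 for tumor 307, and Ngp by -1.42 and 2.90. These gaps were smaller in ratios from the scanner signals. There Camp was at 1.16 in tumor 323, 0.12 in lung tumor 323, 0.17 in tumor 307 and 0.91 in lung tumor 307. Ngp was at 0.46, 0.07, 0.06 and 0.84 in the same order. For Camp, Ngp and the named Mpo probe (-0.82 and 1.07) the lung tumor was the lower of the pair for 323 and the higher for 307. On the other Mpo probe the lung tumor was the lower in both pairs (-0.64 and -0.93). Mmp8 differed by 3.22 for tumor 323 and 0.03 for tumor 307, with green not well above background in either pair. In red alone Mmp8 was at -2.57 in tumor 323 and -1.74 in lung tumor 323. It was at -2.89 in tumor 307 and -1.64 in lung tumor 307. With 1 lung and 1 mammary tumor per number, the difference between the pairs has no test.

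Genes of the same cells and pathways that are no members were read from 4 lists. Of 25 other neutrophil genes with a probe, 15 were higher and 10 lower in sarcomatoid tumors than in adenocarcinomas, 0 passed and the median difference was 0.31. Mmp9, a gelatinase of neutrophil granules that other cells also make, differed most upward (3.14, SE 1.19, limma adjusted p = 0.461), and Stfa3, a stefin protease inhibitor, most downward (-1.01, SE 0.87, limma adjusted p = 0.774). The mean of the list ran from 1.11 to 1.65 in sarcomatoid tumors and from 0.15 to 2.12 in adenocarcinomas, so the groups overlapped. Ly6g, a defining surface marker, had no probe.

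Of the 10 growth factors and chemoattractants, 8 were higher and 2 lower, 0 passed and the median was 0.95. Cxcl12, the chemokine that holds neutrophils in bone marrow, differed by 2.63 (SE 0.81, limma adjusted p = 0.387). Csf3, the ligand of Csf3r, differed by -1.46 (SE 0.45, limma adjusted p = 0.387) and was well above background on 6 arrays. Csf3r itself differed by -0.00, as given above, and Il17a was not well above background on any array.

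Of the 11 genes for receptors and signaling of S100a8 and S100a9, 7 were higher and 4 lower, 0 passed and the median was 0.14. Tlr4 differed by 1.58 (SE 0.44, limma adjusted p = 0.346), and Traf6, an adaptor of its signaling, by -0.47 (SE 0.28, limma adjusted p = 0.637). Of the 10 interleukin 1 pathway genes, 9 were higher and 1 lower, 0 passed and the median was 0.61. Il18, a cytokine that caspase 1 activates as it does Il1b, differed by 1.93 (SE 0.56, limma adjusted p = 0.369), and the receptor subunit Il1rap by -0.78 (SE 0.41, limma adjusted p = 0.585). The macrophage list, whose cells also make Il1b, was higher in 11 of 11 genes by a median of 1.59. Of these, 7 had an unadjusted p below 0.05, beside 9.23% of all probes, and 0 passed the adjusted one. Between lung and mammary sarcomatoid tumors, 6 macrophage genes were higher and 5 lower (median 0.01), while Il1b differed by -2.43. The part of macrophages in the Il1b values was not tested.

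The genes whose ratios followed the mean of S100a8 and S100a9 most closely over the 10 arrays were Nfat5 (Pearson r = 0.907), Phlpp2 (0.836), 4831440D22Rik (0.827), Ints10 (0.821) and Fam222b (0.820), out of 13903 genes compared. This order is a description over 10 arrays that share one reference RNA, and it says nothing on the other 8 members. The order was computed on the deposited table only. There S100a8 varied more (SD 0.788) than S100a9 (SD 0.189), so the mean mostly followed S100a8. The Pearson r between S100a8 and S100a9 was 0.217 in that table. Among the other members, the highest Pearson r was 0.414 with S100a8 and 0.479 with S100a9, both for Csf3r.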

How the data were processed

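RNA of 10 tumors was hybridized on 10 two-channel Agilent mouse arrays. The authors deposited scanner files with spot intensity in both channels, per the file headers made by the Feature Extraction software with a log10 ratio of red over green, and a normalized table of log2 values. Their methods name limma without steps or version.

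The main values are the log2 values of the deposited table, with its 42515 rows averaged to 40196 of the 41174 probes on the array, and the scanner signals serve as an alternative. Probes were matched to genes by the names in the files, and synonyms and promoters came from RefSeq tables (GRCm38.p6). Probe coordinates are those of the files (mm7). The members and the gene lists were chosen with earlier results of these data known.

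Groups were compared with limma 3.58.1 in R 4.3.3 (lmFit and eBayes, two-sided) over all probes. P-values were adjusted by the Benjamini-Hochberg method, and 0.05 was the threshold. One fit had 2 groups and one had 3, where all 10 arrays share the estimate of the spread. No filter on dim probes was used. For Ltf, with 2 probes, the probe with the higher mean red signal stood for the gene. In each list the genes with the largest and smallest difference were named. Likeness was Pearson's r among genes well above background on at least 8 arrays. Alternatives were the scanner signals (normexp with offset 50, loess), quantile normalization, median centering, a filter at 5 arrays, scan batch, slide, tumor number, leaving out each array, all probes of a gene, and red alone (log2 red minus its 75th percentile). The number of arrays limits the precision.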

Additional observations from a re-analysis of the deposited data

Results flagged for a closer look

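Among the 5 adenocarcinomas, tumor 470 lay far from the other 4 for Lcn2, at -0.97 against 3.26 to 4.32, and for Ltf, at 2.53 against 4.47 to 5.23. Tumor 105 lay far from the others for Mpo, at 1.42 against -0.50 to -0.04. Of 20 groups of 5 tumors searched in this way, chance would mark about 1.

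For 6 genes the lung tumor differed from its mammary tumor in one direction for tumor 323 and in the other for tumor 307, with 1 pair of arrays each, and the difference between the pairs was not tested. In the deposited table it was widest for Camp, 6.39 on the log2 scale, and Ngp, 4.32, whose reference signal was not well above background on any array. Both were narrower in ratios from the scanner signals. It was 1.89 for the named Mpo probe, while on the other Mpo probe the lung tumor was lower in both pairs (-0.64 and -0.93). It was 1.08 for Csf3r, 0.85 for S100a8 and 0.50 for S100a9.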

How the results depend on the processing

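With the alternatives, 536 member values were recomputed, of which 464 kept their sign and side of the threshold, 71 turned sign (35 of them with 1 array left out) and 1 passed, that of Lcn2 without tumor 470. No turned value was past the threshold under either setting. For sarcomatoid minus adenocarcinoma, signs turned with quantile normalization S100a8 0.28 and Csf3r 0.32, with scan batch as a term S100a9 -0.0027 and Ngp -0.028, with scanner signals Csf3r 0.13 and Camp -0.10, with red alone Csf3r 0.65 and Camp -0.069, with slide as a block Camp -0.093 and Ngp -0.13, with 1 value per tumor number Ngp -0.095. Leaving out 1 array, signs turned within the ranges of S100a8 (-0.37 to 0.17), S100a9 (-0.0085 to 0.14), Csf3r (-0.27 to 0.12), Camp (-0.27 to 1.05) and Ngp (-0.44 to 0.28). For lung minus mammary sarcomatoid, signs turned with scanner signals S100a9 0.011, Camp -0.021, Mmp8 -0.092 and Mpo -0.22, with quantile normalization S100a9 0.24 and Csf3r 0.26, with scan batch as a term S100a9 0.0072, Csf3r 0.30 and Il1b 0.096, with red alone S100a9 0.32, Csf3r 0.56, Camp -0.21 and Mpo -0.99. Leaving out 1 array, signs turned within the ranges of S100a8 (-0.021 to 0.83), S100a9 (-0.23 to 0.061), Csf3r (-0.44 to 0.32), Camp (-0.37 to 3.09), Ngp (-0.40 to 2.39), Mmp8 (-0.38 to 2.20) and Mpo (-0.79 to 0.92). For mammary sarcomatoid minus adenocarcinoma, signs turned with quantile normalization S100a8 0.037, S100a9 -0.039 and Camp 0.045, with scan batch as a term S100a9 -0.0066, Csf3r -0.41, Lcn2 0.67, Mmp8 -0.49 and Mpo -0.082, with red alone S100a9 -0.12, Camp 0.016 and Ngp 0.40. Leaving out 1 array, signs turned within the ranges of S100a8 (-0.76 to 0.094), S100a9 (-0.039 to 0.26), Csf3r (-0.43 to 0.34), Camp (-1.05 to 0.51), Mmp8 (-0.26 to 1.38) and Ltf (-0.25 to 0.56). In the fit with the replicate block (tumor number as the pairing, 2 pairs), S100a8 was at -0.021 for lung minus mammary and the other 9 members kept their sign, with Lcn2 at -4.24 (limma adjusted p = 0.0903). With 2 pairs the pairing could not be checked from correlations.

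The probes passing between sarcomatoid tumors and adenocarcinomas numbered 0, and 2 with 1 value per tumor number. With 1 array left out they numbered 0 to 618, and 618 was without tumor 470, when 0 members passed. Between lung and mammary sarcomatoid tumors they numbered 10, and 2 from scanner signals, 22 with quantile normalization, 6 with median centering, 0 with scan batch as a term, 2 in red alone, 0 with the replicate block and 0 to 84 with 1 array left out. Between mammary sarcomatoid tumors and adenocarcinomas they numbered 0 to 210 with 1 array left out, and 210 was without tumor 470. The filter on dim probes and the mean over probes moved no member across the threshold. Red alone was chosen after the data were seen. The causes were not tested. Dim signals limit Camp and Ngp, for which green was well above background on 0 arrays.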
